A study of Homo sapiens with 12 samples.

Results

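The genes described here are 9 that make microRNAs and carry their precursors out of the nucleus, namely DGCR8, DROSHA, DDX5, DDX17, SRRT, XPO5, DICER1, TARBP2 and PRKRA. They were measured by 30 of the 54675 probe sets on the array, chosen by annotated symbol, and 27 of these passed a filter on dim signals, so that every gene kept at least 1 tested probe set. RNA came from 293T cells, a transformed human embryonic kidney line, transiently transfected by polyethylenimine and collected 48 hours later. The hairpin vector encodes an artificial hairpin for CU1276, a small RNA. The tRNA vector encodes the gene chr1.tRNA68-Gly(GCC), the tRNA from which the labels say CU1276 is cut. The empty vector is the control, and each group has 4 arrays, labelled as biological replicates. The comparisons ask which transcripts change in level once a vector encoding the CU1276 hairpin or the tRNA gene is transfected. The level of CU1276 itself was not analysed here.

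As background, most microRNAs are transcribed inside long hairpin transcripts. In the nucleus the Microprocessor, made of the nuclease DROSHA and its RNA-binding partner DGCR8, cuts the hairpin out, with the help of the RNA helicases DDX5 and DDX17 and of SRRT (also called ARS2), which links the process to the RNA cap. XPO5 carries the hairpin to the cytoplasm. DICER1, with its partner proteins TARBP2 and PRKRA, cuts off the loop. The Microprocessor is also known to cut hairpins in the messenger RNA of DGCR8 itself, which lowers that messenger, and 1 of those hairpins is the source of the microRNA miR-1306.

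All 4 DGCR8 probe sets are annotated jointly to DGCR8 and MIR1306, and 1 of 2 DDX5 probe sets jointly to DDX5, MIR3064 and MIR5047. Each of these microRNA genes lies within the span of its host gene in GRCh38.p14, the build given with the microRNA sequences. They are shown because the jointly annotated probe sets lie in the gene that carries both the messenger and the microRNA, and their signals were not divided between these products. In the mature microRNAs below, written 5′ to 3′, the capitals mark the seed, bases 2 to 8, and no 2 of the 5 share a seed.
hsa-miR-1306-5p at chr22:20086072-20086093, plus strand: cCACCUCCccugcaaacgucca
hsa-miR-1306-3p at chr22:20086112-20086129, plus strand: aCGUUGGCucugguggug
hsa-miR-3064-5p at chr17:64500817-64500837, minus strand: uCUGGCUGuuguggugugcaa
hsa-miR-3064-3p at chr17:64500775-64500797, minus strand: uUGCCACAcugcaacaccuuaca
hsa-miR-5047 at chr17:64501230-64501250, minus strand: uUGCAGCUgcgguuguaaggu
The hairpin of MIR3064 shows the form of RNA on which these genes act. Here the capitals mark the 5p and 3p arms, and the loop and ends are in lower case.
MIR3064 hairpin at chr17:64500774-64500839, minus strand: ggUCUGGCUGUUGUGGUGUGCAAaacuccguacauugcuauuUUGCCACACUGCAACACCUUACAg

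Values are MAS5 signals on a linear scale, which the authors had scaled to a common intensity on each array. Signals of different probe sets cannot be set against each other, so levels are compared between groups within a probe set. Control probe sets for Bacillus RNAs serve to check labelling. Their mean signal was 1941 to 2061 on the arrays numbered 1 and 371 to 431 on those numbered 2. On those numbered 3 and 4 it was 19.8 to 27.6. These 3 levels hold the 3 groups in equal numbers. They are called labelling levels below, a name taken from these controls alone, since the labels do not say what the numbers share. GAPDH signal at the 3′ end over that at the 5′ end, which grows as RNA breaks down, was 1.47 to 1.67 at the level of number 1, 1.20 to 1.38 at that of number 2 and 1.18 to 1.39 at that of numbers 3 and 4. The same ratio for ACTB was 2.40 to 3.05, 2.45 to 3.30 and 1.83 to 2.26 at these levels, so that number 2 stood with number 1 by ACTB and with numbers 3 and 4 by GAPDH. Of 8 markers chosen for 293T, 7 passed the filter (PAX2, KRT8, KRT18, VIM, NEFL, NEFM and LIN28B) and LHX1 did not. Of other cell types, COL1A1, COL1A2, COL3A1 and DCN of fibroblasts, CD79A of B cells, HBB of erythroid cells and ALB of hepatocytes passed it. MS4A1 of B cells and CD3E, PTPRC, CD14 and LYZ of T and myeloid cells did not. Passing asks only for a geometric mean of 43.3. The empty vector mean was 838 for COL1A1, 54.0 for COL1A2, 75.6 for COL3A1 and 44.0 for DCN. It was 111 for CD79A, 83.9 for HBB and 124 for ALB, and 123 for PAX2 of 293T. Such low signals do not show that a gene is expressed. In a fit that did not use the replicate numbers, no tested marker of 293T or of another cell type had an unadjusted limma p under 0.05 in any of the 3 comparisons.

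DGCR8, the RNA-binding subunit of the Microprocessor, was the 1 gene of the 9 with probe sets in which the arrays of 1 vector stood clear of all others. All 4 of its probe sets had a higher mean with the hairpin vector than with either of the other vectors, by a fold of 1.49 to 1.60 over the empty vector in the 3 brighter ones. The signal of the brightest, 64474_g_at, on arrays 1 to 4 was 2402, 2107, 1951 and 2436 on the hairpin vector arrays, 1404, 1350.1, 1392 and 1549.5 on the tRNA vector arrays and 1215, 1457, 1533 and 1352 on the empty vector arrays. Every hairpin vector array lay above all 8 others, a separation upward that 1.06% of all tested probe sets showed against the empty vector and 1.46% against the tRNA vector. The tRNA vector and empty vector arrays overlapped. The mean was 2224 ± 234 for the hairpin vector and 1424 ± 86.9 for the tRNA vector, against 1389 ± 138 for the empty vector (SD, n = 4). RNA came from whole cultures, so a higher level in each cell and a larger share of cells with a higher level cannot be told apart.

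The next brightest, 218650_at, read 1265, 1549, 1738 and 1768 on the hairpin vector arrays, 933, 1239.9, 1176 and 1292 on the tRNA vector arrays and 839.9, 1024, 1303 and 1097 on the empty vector arrays. Here the lowest hairpin vector array, number 1, lay inside the range of the other groups, and number 1 was the lowest array of each group. Its mean was 1580.2 ± 231 for the hairpin vector and 1160.2 ± 159 for the tRNA vector, against 1066 ± 191 for the empty vector. The third, 91617_at, read 771, 735, 941 and 989 on the hairpin vector arrays, 627, 577, 566 and 552 on the tRNA vector arrays and 465, 625, 537 and 694 on the empty vector arrays, with every hairpin vector array again above all 8 others. Its mean was 859 ± 125 for the hairpin vector and 581 ± 32.6 for the tRNA vector, against 580.1 ± 100.3 for the empty vector. The dimmest, 219811_at, read 23.6, 159, 137 and 192 on the hairpin vector arrays, 105, 15.9, 79.0 and 84.5 on the tRNA vector arrays and 16.05, 30.7, 74.0 and 110.3 on the empty vector arrays, and its groups overlapped widely.

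**Figure D1:**
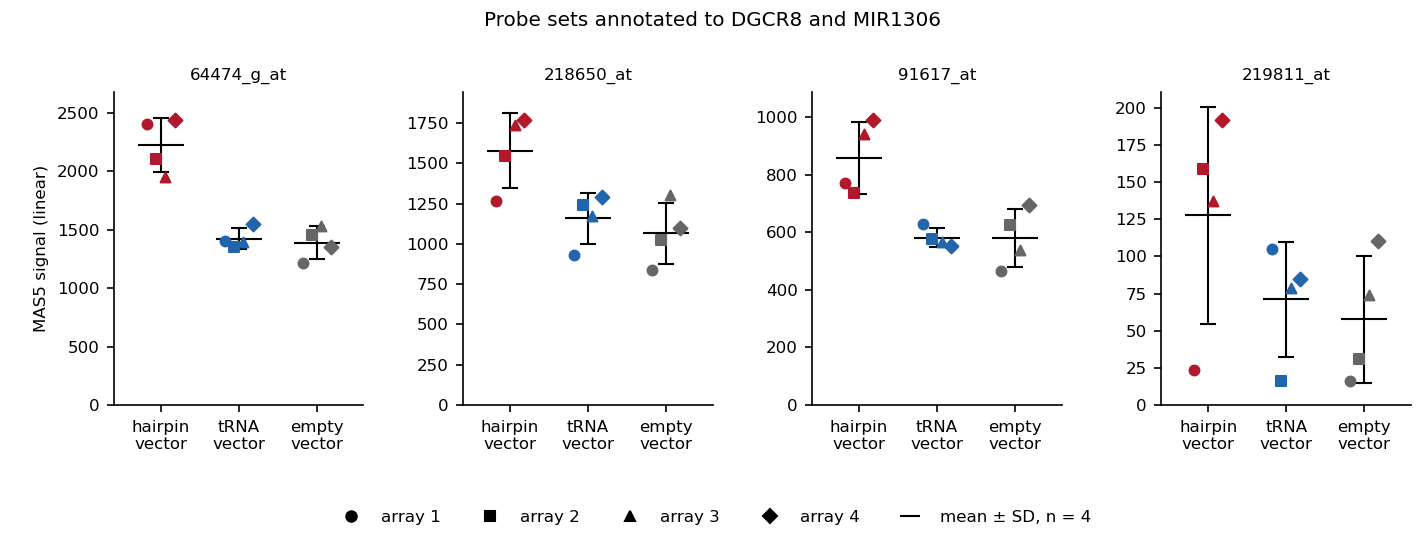
MAS5 signal of the 4 probe sets annotated to DGCR8 and MIR1306 on each array, with marker shapes for replicate numbers and bars for the mean ± SD of 4 arrays. In 64474_g_at and 91617_at the hairpin vector arrays, from 1951 and 735 upward, lie above all arrays of the other vectors, while in 218650_at and 219811_at they overlap them.

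Against the empty vector, the hairpin vector gave 64474_g_at a log2 difference of 0.68 ± 0.10 (limma SE, n = 4 arrays a group), a fold of 1.60 with a 95% interval of 1.37 to 1.86. It stood at rank 1 of 32768 tested probe sets by unadjusted p, yet did not pass after Benjamini-Hochberg adjustment (limma adjusted p = 0.335). For 218650_at the log2 difference was 0.57 ± 0.15 (fold 1.49, interval 1.19 to 1.86, rank 19) and for 91617_at it was 0.57 ± 0.14 (fold 1.49, interval 1.20 to 1.84, rank 13), each with a limma adjusted p of 0.9999. For the dim 219811_at it was 1.15 ± 0.80, with an interval of -0.56 to 2.86, and it moved to 0.66 without empty vector array 1 and to 1.85 without hairpin vector array 1. The exact permutation p, two-sided over the 8 arrays, was 0.0286 for 64474_g_at and 91617_at, the smallest possible, 0.0571 for 218650_at and 0.229 for 219811_at. Over the 90 such tests of the 30 probe sets the lowest Benjamini-Hochberg value was 0.643. With a smallest possible p of 0.0286, none could pass unless most of the 90 tests reached it. This adjustment therefore decides nothing here.

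For all 4 probe sets the difference between hairpin and empty vector had the same sign at each labelling level. For numbers 1, 2, and 3 with 4 it was 0.98, 0.53 and 0.60 on the log2 scale in 64474_g_at, 0.59, 0.60 and 0.55 in 218650_at and 0.73, 0.23 and 0.66 in 91617_at. It was positive in 4 of 4 same-number comparisons for each of the 4 probe sets. With the labelling level as a block, 64474_g_at and 218650_at passed (limma adjusted p = 0.0482 each), 91617_at did not (0.621) and 219811_at did not (0.893). That fit called 3 probe sets of all those tested. With the replicate number as the block instead, none of the 4 passed, at a limma adjusted p of 0.0795 for 64474_g_at and 218650_at, 0.688 for 91617_at and 0.907 for 219811_at. The 4 DGCR8 probe sets are annotated to 1 gene and were read on the same arrays, so their shared sign is no replication.

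With the tRNA vector the 3 brighter DGCR8 probe sets were close to the empty vector level. The log2 difference was 0.039 ± 0.10 for 64474_g_at, with an interval of -0.18 to 0.26, 0.13 ± 0.15 for 218650_at (-0.19 to 0.45), 0.016 ± 0.14 for 91617_at (-0.29 to 0.32) and 0.37 ± 0.80 for 219811_at (-1.34 to 2.08), and the limma adjusted p was 0.9999 for each. Both comparisons share the empty vector arrays.

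Set directly against the tRNA vector, the hairpin vector gave 64474_g_at a log2 difference of 0.64 ± 0.10, a fold of 1.56 with an interval of 1.34 to 1.81 and rank 2 of all tested probe sets (limma adjusted p = 0.236). The values were 0.44 ± 0.15 for 218650_at, 0.55 ± 0.14 for 91617_at and 0.79 ± 0.80 for 219811_at, at a limma adjusted p of 0.9997 each. With the labelling level as a block 64474_g_at passed (limma adjusted p = 0.0275), 218650_at and 91617_at did not (0.107 and 0.197), nor did 219811_at (0.809). With the replicate number as the block the same 1 of the 4 passed (limma adjusted p = 0.0442). Of all tested probe sets the labelling-level fit called 8 and the replicate fit 6. The smallest limma adjusted p was 0.0012 in the former and 0.0023 in the latter. At the 3 labelling levels 64474_g_at differed by 0.77, 0.64 and 0.57 and 219811_at by -2.16, 3.33 and 0.99, so that the dimmest probe set did not keep its sign.

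DROSHA, the nuclease that pairs with DGCR8, had overlapping groups. Its single probe set, 218269_at, read 3057, 2267, 2450.3 and 2239.6 on the hairpin vector arrays, 2827, 2199, 2201 and 2204 on the tRNA vector arrays and 2765, 2604, 2421 and 2421 on the empty vector arrays. Array 1 was the highest of each group. The log2 difference was -0.038 ± 0.11 with the hairpin vector (-0.28 to 0.21) and -0.12 ± 0.11 with the tRNA vector (-0.37 to 0.12) against the empty vector, and 0.084 ± 0.11 between hairpin and tRNA vector.

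**Figure D2:**
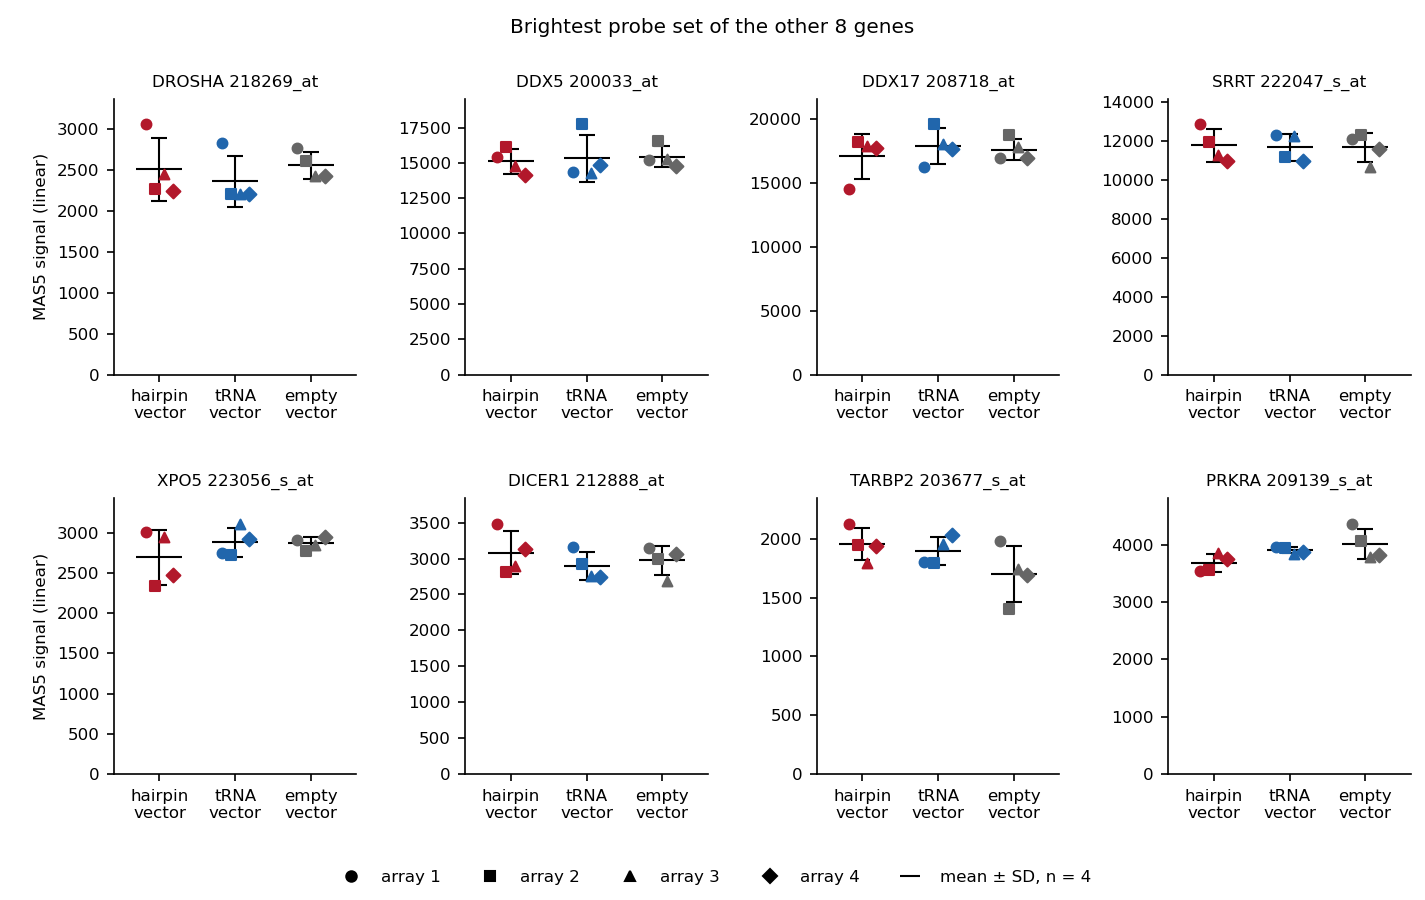
MAS5 signal of the brightest probe set of each of the other 8 genes on each array, drawn from 0, with marker shapes for replicate numbers and bars for the mean ± SD of 4 arrays. In each of the 8 panels the groups overlap, and array 1 of DROSHA is the highest of its group under each vector.

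Among the cofactors, the main probe sets of the paired helicases DDX5 and DDX17 and of SRRT were close to level across the vectors. For DDX5 the jointly annotated 200033_at averaged 15106 ± 860.2 for the hairpin vector and 15311 ± 1646 for the tRNA vector, against 15443 ± 764 for the empty vector (SD, n = 4), and the log2 difference from the empty vector was -0.032 ± 0.079 with the hairpin vector and -0.017 ± 0.079 with the tRNA vector. Its other probe set, 225886_at, averaged 865 ± 162 for the hairpin vector and 872 ± 132 for the tRNA vector, against 959.8 ± 143 for the empty vector. It gave log2 differences of -0.16 ± 0.16 for the hairpin vector and -0.14 ± 0.16 for the tRNA vector. The DDX5 groups overlapped in both probe sets.

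For DDX17 the brightest probe set, 208718_at, averaged 17082 ± 1748 for the hairpin vector and 17882 ± 1383 for the tRNA vector, against 17598 ± 849 for the empty vector, with log2 differences of -0.048 ± 0.084 and 0.021 ± 0.084 for hairpin and tRNA vector. The 4 dimmer DDX17 probe sets had wide intervals in the fit without a block, which does not use the replicate numbers. In 208719_s_at the SD was 343 on a mean of 505 with the hairpin vector and 444 on 552 with the empty vector, a spread that followed the replicate numbers, as given below. Against the empty vector it differed by -0.0022 ± 0.76 under the hairpin vector and -0.078 ± 0.76 under the tRNA vector. The values for 208151_x_at were -0.21 ± 0.67 and 0.050 ± 0.67, and those for 213998_s_at were 0.42 ± 0.52 and 0.28 ± 0.52. The dimmest, 230180_at, averaged 133 ± 46.4 for the hairpin vector and 100.1 ± 37.5 for the tRNA vector, against 151 ± 26.3 for the empty vector, with differences of -0.25 ± 0.37 and -0.67 ± 0.37. None of the DDX17 probe sets passed in this fit, and each sign came with an interval that spans 0. With the labelling level as a block the differences were the same and the SE of the 4 dimmer ones was smaller. The SE was 0.18 for 208719_s_at, 0.21 for 208151_x_at, 0.22 for 213998_s_at and 0.28 for 230180_at. No DDX17 probe set passed there either. Under the tRNA vector 230180_at gave -0.67 ± 0.28 with this block (limma adjusted p = 0.602).

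SRRT 222047_s_at averaged 11757 ± 838 for the hairpin vector and 11659 ± 705 for the tRNA vector, against 11660.4 ± 742 for the empty vector, and its intervals against the empty vector ran from -0.15 to 0.17 with the hairpin vector and from -0.16 to 0.16 with the tRNA vector, among the narrowest of the 27. The next, 201680_x_at, gave -0.010 ± 0.072 and 0.0061 ± 0.072. Its dimmer 201679_at gave 0.15 ± 0.36 with the hairpin vector, or 0.54 without hairpin vector array 1, and 222046_at gave -0.14 ± 0.17. The probe set 214127_s_at was below the filter, at 4.27 to 7.12 (hairpin vector), 5.68 to 10.8 (tRNA vector) and 7.07 to 26.4 (empty vector).

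XPO5, the export receptor, had 3 tested probe sets with group means close together. The brightest, 223056_s_at, read 3013, 2337, 2949.6 and 2468 on the hairpin vector arrays, 2752, 2722, 3113 and 2924 on the tRNA vector arrays and 2913, 2766, 2844 and 2941 on the empty vector arrays. Hairpin vector arrays 2 and 4 were the lowest of the 12, while arrays 1 and 3 of that group lay above every empty vector array. Its log2 difference was -0.099 ± 0.092 with the hairpin vector and 0.0042 ± 0.092 with the tRNA vector. The other probe sets gave 0.048 ± 0.13 (223057_s_at, or 0.18 without hairpin vector array 1) and -0.065 ± 0.14 (223055_s_at) with the hairpin vector, of opposite signs and each within 1 SE of 0. With the tRNA vector they gave 0.062 ± 0.13 and -0.047 ± 0.14. Their means were 2602 ± 434 for the hairpin vector and 2609.7 ± 287 for the tRNA vector, against 2497 ± 259.6 for the empty vector in 223057_s_at and 1644 ± 246 for the hairpin vector and 1674 ± 350.3 for the tRNA vector, against 1708 ± 134 for the empty vector in 223055_s_at.

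DICER1, the nuclease that makes the final cut, had 6 probe sets, of which 4 were tested. The brightest, 212888_at, read 3488, 2818, 2900.1 and 3128 on the hairpin vector arrays, 3166, 2924, 2764 and 2747 on the tRNA vector arrays and 3153, 2993, 2683 and 3066 on the empty vector arrays, and the groups overlapped. Its log2 difference was 0.050 ± 0.089 with the hairpin vector (-0.14 to 0.24) and -0.036 ± 0.089 with the tRNA vector (-0.23 to 0.15). The other tested ones gave 0.16 ± 0.24 (213229_at), 0.17 ± 0.32 (206061_s_at) and 0.13 ± 0.31 (216260_at) with the hairpin vector, and -0.0082 ± 0.24, 0.10 ± 0.32 and 0.17 ± 0.31 with the tRNA vector. Each of these intervals spans 0. With the labelling level as a block the differences were the same. The SE was then 0.097 for 213229_at, 0.11 for 206061_s_at and 0.30 for 216260_at, and no DICER1 probe set passed. The probe sets 216280_s_at and 216281_at were below the filter, with signals of 4.56 to 34.8 (hairpin vector), 6.55 to 49.6 (tRNA vector) and 12.2 to 34.9 (empty vector) in the one and 4.59 to 16.4 (hairpin vector), 8.13 to 20.1 (tRNA vector) and 9.70 to 76.8 (empty vector) in the other.

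TARBP2, a partner of DICER1 that binds double-stranded RNA, had a higher mean under both the hairpin and the tRNA vector, in both probe sets, without passing the test. The brighter, 203677_s_at, read 2131, 1952, 1798 and 1942 on the hairpin vector arrays, 1799.7, 1791, 1959 and 2035 on the tRNA vector arrays and 1981, 1399.6, 1743 and 1690.0 on the empty vector arrays. Empty vector array 2 was the lowest of the 12, and the groups overlapped. The log2 difference from the empty vector was 0.21 ± 0.11 for the hairpin vector and 0.16 ± 0.11 for the tRNA vector, each at a limma adjusted p of 0.9999. Without empty vector array 2 these values were 0.12 and 0.073. The dimmer, 239389_at, read 157, 181, 123 and 201 on the hairpin vector arrays, 204, 213, 135 and 153 on the tRNA vector arrays and 109, 83.1, 145 and 137 on the empty vector arrays. It gave 0.49 ± 0.26 and 0.58 ± 0.26, at the same adjusted p. With the labelling level as a block the differences were the same, with an SE of 0.086 for 203677_s_at and 0.27 for 239389_at. Limma adjusted p was then 0.883 for both under the hairpin vector. Under the tRNA vector it was 0.686 for 203677_s_at and 0.645 for 239389_at. The differences of the 2 vectors share the empty vector arrays, so their like sign is no replication. At the level of number 2 the 239389_at difference was 1.13 with the hairpin vector and 1.36 with the tRNA vector, against 0.16 and 0.029 at that of numbers 3 and 4.

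PRKRA (also called PACT), the other partner of DICER1 and an activator of the kinase PKR, had a slightly lower mean under the hairpin vector, without passing the test. Its 209139_s_at read 3539.8, 3550.5, 3852 and 3749 on the hairpin vector arrays, 3951, 3937, 3840.1 and 3864 on the tRNA vector arrays and 4365, 4054, 3789 and 3826 on the empty vector arrays. Hairpin vector array 3 reached into the range of both other groups. The log2 difference from the empty vector was -0.12 ± 0.070 for the hairpin vector, at a limma adjusted p of 0.9999, and -0.038 ± 0.070 for the tRNA vector. At the levels of numbers 1, 2, and 3 with 4 the hairpin vector's difference was -0.30, -0.19 and -0.0027. The dim 237107_at ranged over 32.5 to 102 (hairpin vector), 19.2 to 94.1 (tRNA vector) and 42.5 to 126 (empty vector), and gave differences of -0.42 ± 0.59 and -0.50 ± 0.59 for hairpin and tRNA vector.

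Counted over the 27 tested probe sets, 0 passed the limma adjusted p of 0.05 in any of the 3 comparisons, against 0% of all tested probe sets in each. The counts at an unadjusted p under 0.05 come from the fit without a block. There the hairpin vector had 3 higher, all DGCR8, and 0 lower against the empty vector. Of all tested probe sets 1.43% were higher and 1.22% lower. The tRNA vector had 1 higher, TARBP2 239389_at, and 0 lower, where 1.71% were higher and 2.07% lower. Between hairpin and tRNA vector 3 were higher, again all DGCR8, and 0 lower, against 2.3% and 1.58%. The hairpin vector arrays lay entirely above the empty vector arrays in 2 probe sets, both of DGCR8, and entirely below in 0, where 1.06% of all tested probe sets lay above and 1.06% below. They lay above the tRNA vector arrays in the same 2 and below in 0, against 1.46% and 1.17% of all. The tRNA vector arrays lay above the empty vector arrays in 0 and below in 0, against 1.17% and 1.43% of all.

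Taking the brightest probe set of each gene, the median log2 difference from the empty vector was -0.032 with the hairpin vector, 4 genes higher and 5 lower, and 6.19e-05 with the tRNA vector, 5 higher and 4 lower. The medians over all tested probe sets were 0.0031 and -3.52e-04. Without DGCR8 the 23 remaining probe sets had a median of -0.010 with the hairpin vector, and the widest difference among them was 0.49 in TARBP2 239389_at.

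**Figure D3:**
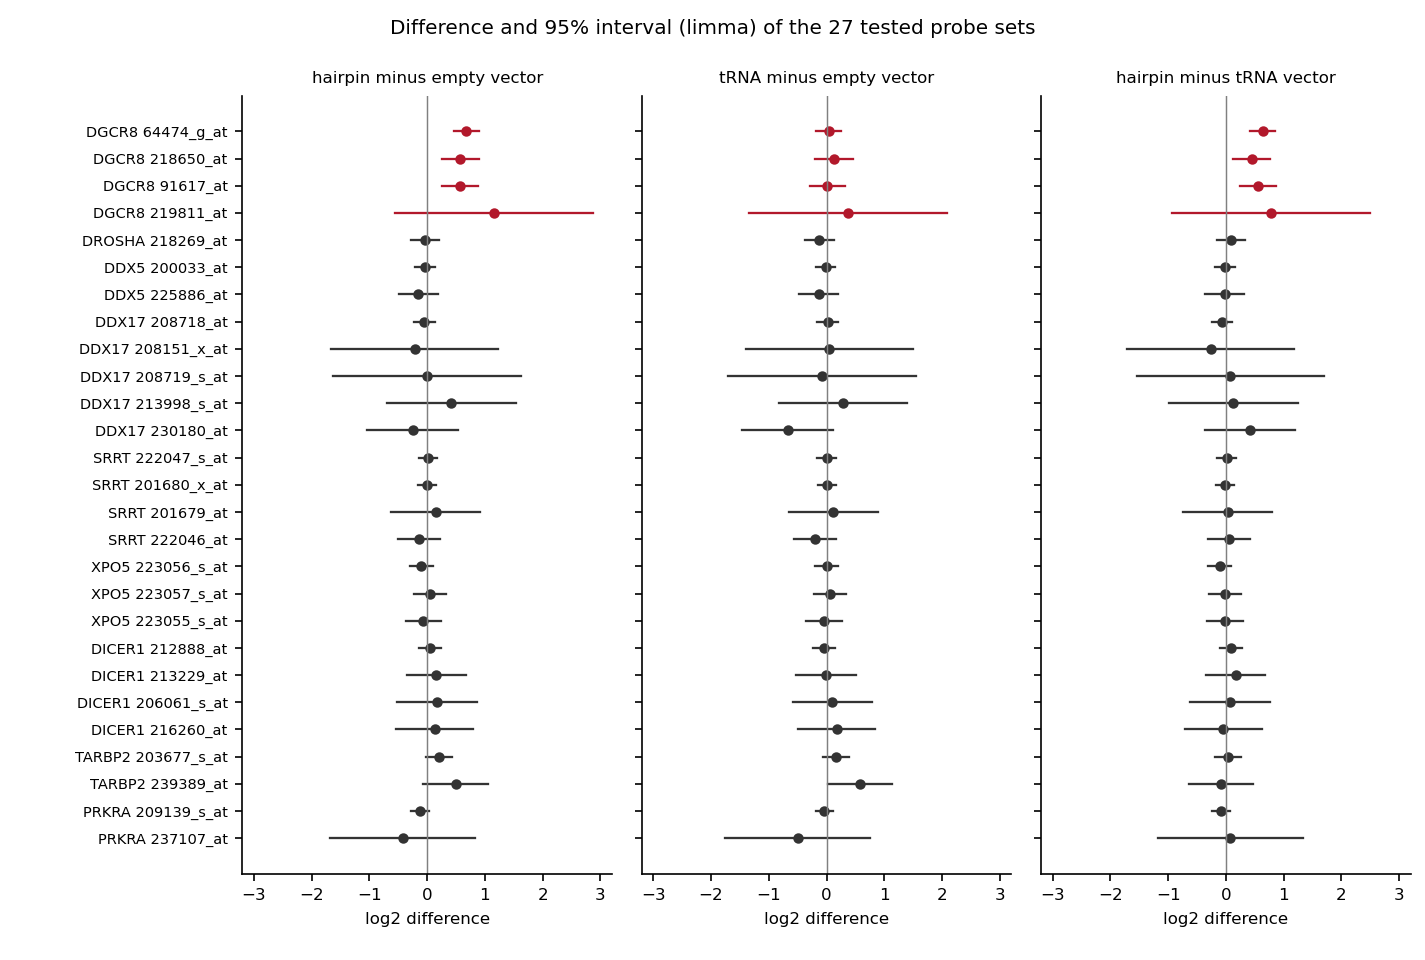
Log2 difference of each of the 27 tested probe sets (points) with its 95% limma interval (lines) in the 3 comparisons, DGCR8 in red. The intervals of 3 DGCR8 probe sets lie above 0 in both comparisons of the hairpin vector, and most of the others are centred near 0.

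**Figure D4:**
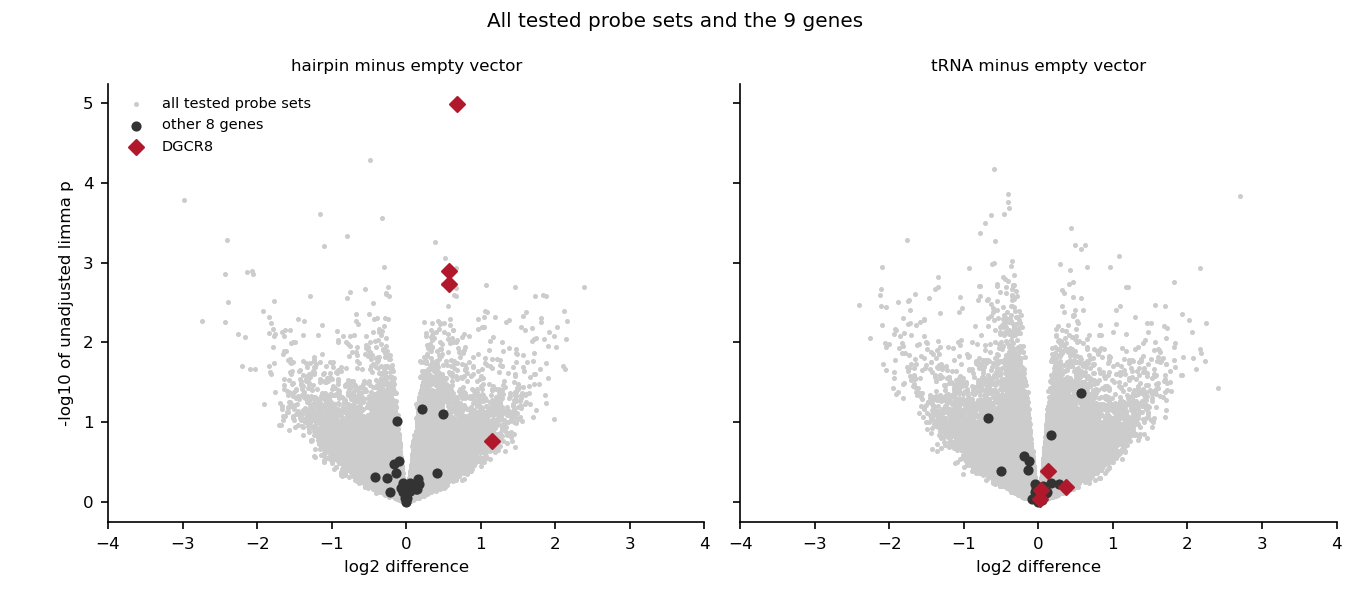
Log2 difference (x axis) against -log10 of the unadjusted limma p (y axis) for the 32768 tested probe sets, with DGCR8 as red diamonds and the other 8 genes as black points. The brightest DGCR8 probe set, at 0.68 on the x axis, is the uppermost point for the hairpin vector, while for the tRNA vector the 4 DGCR8 probe sets lie low on the plot.

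In several probe sets of the 9 genes the signal followed the replicate number of the array. DDX17 and DICER1 each had probe sets that were low on the arrays numbered 1 and high on those numbered 3 and 4, whatever the vector. The DDX17 probe set 208719_s_at ran from 663 to 1052 in the 6 arrays numbered 3 and 4, 227 to 359 in the 3 arrays numbered 2 and 105 to 134 in the 3 arrays numbered 1, with no overlap between the 3 levels. Its log2 difference, numbers 3 and 4 minus number 1 with the vector groups kept in the model, was 2.72 ± 0.18 (limma adjusted p = 1.33e-07). The DDX17 probe sets 208151_x_at and 213998_s_at gave 2.36 ± 0.21 (limma adjusted p = 2.48e-06) and 1.58 ± 0.22 (limma adjusted p = 1.13e-04). The brightest DDX17 probe set, 208718_at, gave 0.16 ± 0.054 (limma adjusted p = 0.0519). The suffix _x_at marks probes that can match other transcripts.

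In DICER1 the probe set 206061_s_at ran from 1146 to 1627 in the 6 arrays numbered 3 and 4, 953 to 1062 in the 3 arrays numbered 2 and 513 to 636 in the 3 arrays numbered 1, again with no overlap. Its log2 difference between these levels was 1.14 ± 0.11 (limma adjusted p = 3.27e-06), and that of 213229_at was 0.80 ± 0.097 (limma adjusted p = 3.46e-05). The brightest DICER1 probe set, 212888_at, pointed the other way at -0.18 ± 0.066 (limma adjusted p = 0.0667), without passing the test. Both genes thus had a bright probe set that did not pass and dimmer ones that did.

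DROSHA fell by 0.31 between these levels (SE 0.068, limma adjusted p = 0.00395), the only 1 of the 27 called lower. The others called higher were DGCR8 218650_at at 0.46 ± 0.082 (limma adjusted p = 8.60e-04), XPO5 223057_s_at at 0.35 ± 0.069 (limma adjusted p = 0.00206) and PRKRA 237107_at at 1.57 ± 0.45 (limma adjusted p = 0.0212). In all 8 of 27 were called higher and 1 lower, where 11.5% of all tested probe sets were higher and 7.58% lower. The brightest DGCR8 probe set gave 0.057 ± 0.094 (limma adjusted p = 0.746), which did not pass. The 3′ to 5′ ratio of GAPDH was higher on the arrays numbered 1 than on the other 9, and that of ACTB was higher on the arrays numbered 1 and 2 than on those numbered 3 and 4. The part of RNA integrity in these differences was not tested. This comparison was chosen after the signals had been seen, and the labels do not say what the numbers share.

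**Figure D5:**
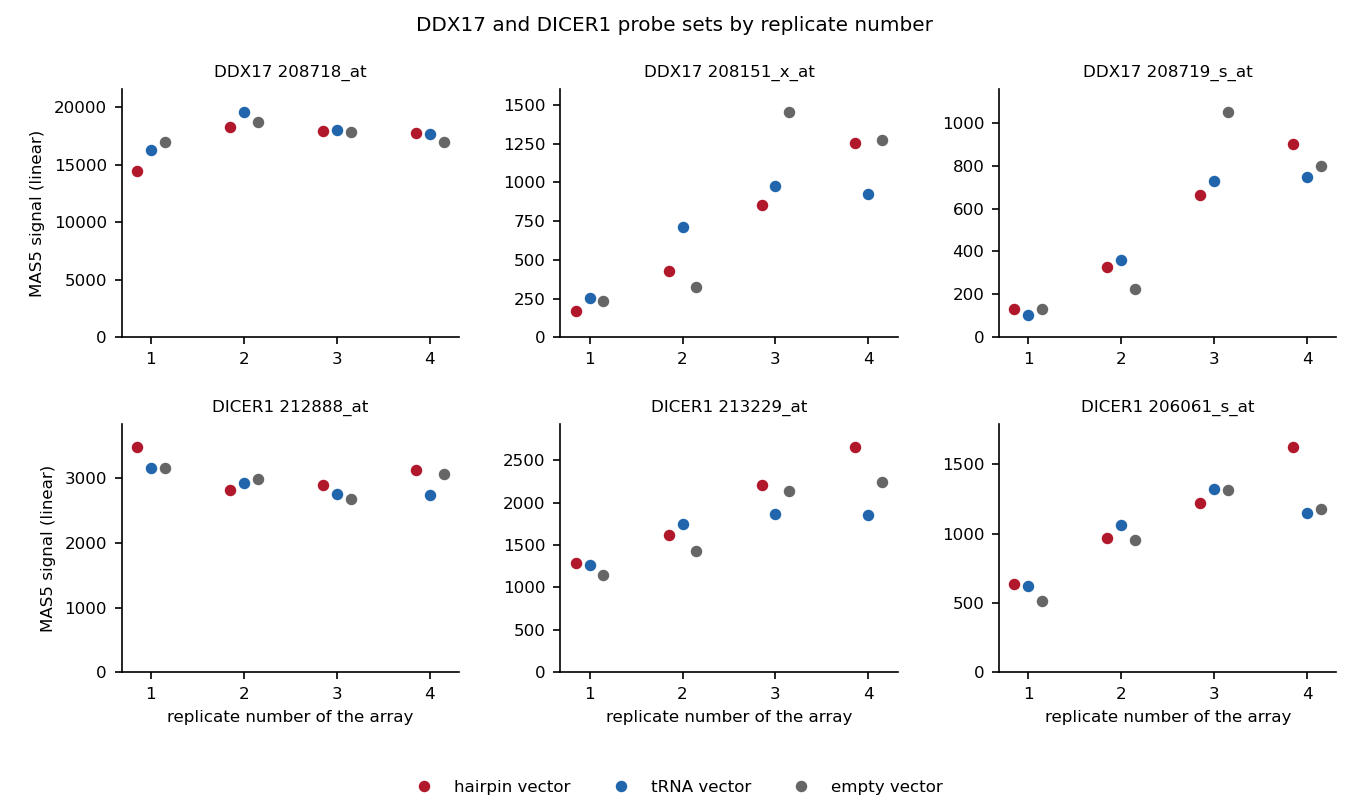
MAS5 signal, drawn from 0, of 3 DDX17 probe sets (upper row) and 3 DICER1 probe sets (lower row) by replicate number of the array, with 1 point per vector. In the middle and right panels the points at number 1 are the lowest and those at numbers 3 and 4 the highest under every vector, which does not hold for the brightest probe set of each gene (left).

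Of 30 other genes of microRNA production and action, 27 were tested. They are the Argonaute and GW182 proteins that carry out silencing, other export factors, and proteins that bind, edit, tail or degrade precursors. Set against the empty vector, 15 had a higher mean and 12 a lower mean under the hairpin vector, with 0 past the adjusted p and a median of 0.0086. At an unadjusted p under 0.05, in the fit without a block, there were 1 higher and 0 lower, where 1.43% and 1.22% of all tested probe sets were. With the tRNA vector 14 were higher and 13 lower, with 0 past the adjusted p, 1 higher and 1 lower at an unadjusted p under 0.05 (1.71% and 2.07% of all tested probe sets) and a median of 0.0043. The higher one was ILF2 (0.17 ± 0.075) and the lower one TUT7 (-0.28 ± 0.12), both chosen after their values were seen. The 3 with the smallest p for the hairpin vector were DIS3L2, a nuclease that degrades tailed precursors (0.54 ± 0.24), MOV10, a helicase of silencing complexes (0.21 ± 0.13), and XPO1, an export receptor for other cargo (0.083 ± 0.062). The signal of DIS3L2 averaged 253 ± 22.8 for the hairpin vector and 205 ± 20.1 for the tRNA vector, against 185 ± 81.9 for the empty vector (SD, n = 4), and the groups overlapped.

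Of 16 noncoding transcripts that harbour microRNAs, which the Microprocessor cuts, 9 had a probe set with 1 symbol and 4 were tested. Under the hairpin vector 3 stood higher on average and 1 lower, with 0 past either threshold. The 3 with the smallest p were MIR31HG (-0.67 ± 0.43), MIR99AHG (0.27 ± 0.32) and DLEU2, host of miR-15a and miR-16-1 (0.12 ± 0.19). The signal of DLEU2 averaged 1233 ± 465 for the hairpin vector and 1002 ± 140.1 for the tRNA vector, against 1084 ± 97.4 for the empty vector, and hairpin vector array values reached from 884 to 1912, around the empty vector range of 1002 to 1225.

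Across the 12 arrays, which include the 3 vectors and the labelling levels, log2 signals of the 3 brighter DGCR8 probe sets correlated with each other at r = 0.76 to 0.82, and the dimmest correlated with them at r = 0.40 to 0.58. Of 13952 genes, the 5 whose brightest probe set was most like the brightest DGCR8 one by Pearson's r were DNAJC11 (r = 0.89), CLIC2 (0.84), SIPA1 (0.83), LURAP1L (0.82) and TPM2 (0.81), a description with no test. DNAJC11, a cochaperone of mitochondria, averaged 1758 ± 65.8 for the hairpin vector and 1501 ± 91.7 for the tRNA vector, against 1346 ± 114 for the empty vector (SD, n = 4). TPM2, a tropomyosin, averaged 245 ± 30.8 for the hairpin vector and 179 ± 10.2 for the tRNA vector, against 161 ± 36.4 for the empty vector. CLIC2, of the chloride intracellular channel family, averaged 89.3 ± 17.5 for the hairpin vector and 52.6 ± 15.6 for the tRNA vector, against 47.0 ± 13.6 for the empty vector. SIPA1, a GTPase-activating protein for Rap, averaged 211 ± 23.6 for the hairpin vector and 120.4 ± 22.8 for the tRNA vector, against 128 ± 42.1 for the empty vector, and LURAP1L averaged 129 ± 12.3 for the hairpin vector and 98.4 ± 3.97 for the tRNA vector, against 93.7 ± 20.3 for the empty vector. Since they were picked for likeness to a probe set that was highest under the hairpin vector, their order by vector follows from the choice.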

How the data were processed

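Gene expression was measured on 12 arrays, 4 each for the hairpin, tRNA and empty vectors, from 12 micrograms of total RNA per sample, per the labels. The deposited values are MAS5 signal intensities, per the submitters' processing notes, with no MAS5 version named. Each column has a 2% trimmed mean of 500.1, the mark of scaling to a common intensity. For the deposited values no build is given in the sources used here.

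Each signal was logged to base 2 as it stood. A probe set was tested if it was no control and its average log2 signal reached the 40th percentile, equal to a geometric mean of 43.3. That kept 32768 and dropped 21845 dim ones. A single limma 3.58.1 fit in R 4.3.3 (lmFit, then eBayes with trend) estimated the 3 groups together. Two-sided p-values were adjusted across all 32768 by Benjamini-Hochberg, with 0.05 as the threshold. Exact permutation tests used scipy 1.17.1. The script was tested on simulated data. The number of arrays limits the precision. Symbols came from GEO's platform annotation, with 41097 probe sets of 1 symbol, 1801 of several and 11777 of none.

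Named genes are the 9 members with every probe set, the 3 genes of each other list with the smallest p for the hairpin vector, and the 5 genes most correlated with DGCR8. The members and lists were chosen with earlier results of these data known. The alternatives were normalization, offset, filter, trend, blocks, the groups in the fit and leaving out arrays.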

Additional observations from a re-analysis of the deposited data

Results flagged for a closer look

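Within groups of 4 arrays, 1 array stood far from the other 3 in 5 of 90 groups of probe set and vector, by Dixon's test at 95%, where chance gives about 1 in 20. Array 1 of the tRNA vector stood at 2827 for DROSHA 218269_at, with the others at 2199 to 2204. Array 2 of the tRNA vector stood at 17752 for DDX5 200033_at, with the others at 14300.0 to 14852. Array 1 of the hairpin vector stood at 14480.2 for DDX17 208718_at and at 1958 for XPO5 223057_s_at, with the others at 17703 to 18230 and 2759 to 2912. Array 1 of the tRNA vector stood at 19.2 for the dim PRKRA 237107_at, with the others at 86.2 to 94.1. Of these, 4 were arrays numbered 1, the number with the highest Bacillus control signal.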

How the results depend on the processing

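The counts of called probe sets in the 3 comparisons were 0 with quantile normalization, an offset of 16, no filter, a filter at the 60th percentile, no trend, only the compared groups, and each of the 12 arrays left out in turn (0 to 0). With the labelling level as a block limma called 3 for the hairpin vector and 4 for the tRNA vector against the empty vector, and 8 between the vectors, 2, 0 and 1 of them DGCR8. With the replicate block it called 0, 0 and 6, with both DGCR8 probe sets of the first count lost (adjusted p = 0.0795 each) and among the 6 the brightest DGCR8 probe set (adjusted p = 0.0442). Same-number arrays deviated together at r over 0.1 in 11 of 12 pairs (0.099 to 0.36). The rule for pairing asked for every pair over 0.1, so the block stayed an alternative although 1 pair alone fell short of it, and 9 of 12 arrays correlated best with an array of their own number. Without the 3 arrays numbered 1 it called 1 between the vectors. For the hairpin vector against the empty vector the brightest DGCR8 probe set ran from 0.58 to 0.74 on the log2 scale over 21 alternatives, with limma adjusted p from 0.0482 to 0.9999. The next and the third ran from 0.46 to 0.68 and from 0.47 to 0.66, and the dimmest from 0.66 to 1.85 over 20. Of 81 member results, 30 kept their sign under every alternative, and 7 of 1689 alternative values moved by over 1 SE without a call. The cause of these shifts was not tested. Signals near the filter limit the dim probe sets.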
